A study of Homo sapiens with 18 samples.

Results

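GNAS and 9 other imprinted genes, IGF2, CDKN1C, KCNQ1, PEG3, PLAGL1, MEST, PEG10, DLK1 and NDN, were followed across 4 histone modifications in MOLM-13 cells, a KMT2A-rearranged line of human acute myeloid leukemia. Cells received either DMSO or 100 nM PR-957, an inhibitor of the immunoproteasome subunit PSMB8, for 72 h according to the sample labels (a figure legend of the study gives another time for Cut&Tag). Chromatin was profiled by Cut&Tag, where Tn5 transposase bound through an antibody cuts and tags the DNA beside a modified histone. Each of H3K27ac, H3K27me3, H3K4me1 and H3K4me3 had 2 DMSO and 2 PR-957 libraries, 16 in all, while the 2 IgG samples are not analysed here. All libraries come from this single cell line, the labels give no genetic change between the groups, and no label states that they stem from separate cultures, so that p-values measure the spread between these libraries, which may be technical. Intervals of these genes were taken by position: in each modification's list, those within 2 kb of a transcription start site in GENCODE release 44 (hg38). The list of genes was chosen with earlier results of these data known. Every such interval of GNAS was kept apart, and each other gene was represented by its interval with the highest mean count over the 4 libraries. Intervals were found for 8 of the 10 genes, 21 at GNAS and 68 at the others, of 275391 intervals in the series. For PEG3, a paternally expressed zinc finger gene, and NDN, a paternally expressed gene of the Prader-Willi region, intervals near a start site are not analysed here.

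Imprinted genes are expressed mainly from the copy inherited from a single parent, a state set by DNA methylation of control regions in the germ line and read out in promoter chromatin. At their active promoters H3K4me3 and H3K27ac accumulate, H3K4me1 marks flanking and enhancer regions, and H3K27me3, laid down by the Polycomb complex PRC2, covers silent genes and can mark the silent parental copy. GNAS is a compound imprinted locus: the NESP55 promoter is used on the maternal copy, the XLas promoter, the antisense GNAS-AS1 and the exon A/B transcript on the paternal copy, and the Gs alpha promoter, which encodes the stimulatory G protein subunit that activates adenylyl cyclase, on both copies in most tissues. The study names GNAS among the KMT2A target genes whose RNA was lower upon PR-957 treatment. From its Cut&Tag it reports no detectable change in histone modifications linked to the KMT2A complex, and none in chromatin accessibility. The counts do not separate parental copies, and in bulk cells a lower level of a modification cannot be told apart from fewer cells carrying it.

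Depth was 9885836 to 14165777 counts per library for H3K27ac, 10032503 to 12047958 for H3K27me3, 15204186 to 30584219 for H3K4me1 and 30070119 to 44591150 for H3K4me3, the PR-957 libraries being the shallower ones for H3K4me1 and H3K4me3. Levels are given as CPM, counts scaled to the TMM-adjusted library size, and, between genes, per kb of interval. Of 9 myeloid markers set as a check of the label, 8 had an H3K4me3 interval (2.15 to 10.4 CPM per kb, MPO being without one) and 9 an H3K27ac interval (2.50 to 16.8 CPM per kb). None of 3 T cell markers had either. Of the B cell markers reported here, PAX5 had H3K4me3 at 3.31 CPM per kb, within the range of the myeloid markers, and H3K27ac at 0.458 CPM per kb, below it, and MS4A1 had neither. Of the 3 erythroid markers KLF1 had H3K4me3 at 0.417 CPM per kb and none had H3K27ac, whereas 2 of 3 epithelial and liver markers had H3K4me3 (0.661 to 0.872 CPM per kb) and 1 had H3K27ac (3.30 CPM per kb).

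Promoter windows of RefSeq (GRCh38.p14, 250 bases before to 50 after a start) were found for 4 of the 10 genes, GNAS, PLAGL1, MEST and NDN, 17 windows in all. Those of 3 GNAS promoters and 2 PLAGL1 promoters are shown because the modifications divide between them: NESP55 and XLas lay under H3K27me3, exon A/B under H3K4me3 and H3K27ac, the imprinted PLAGL1 promoter, which it shares with HYMAI, under H3K27me3 and H3K4me3, and the upstream PLAGL1 promoter under H3K27ac and H3K4me3. Capitals mark TGCCGC on either strand, the hexamer that the imprint-protecting protein ZFP57 binds when methylated.
GNAS NESP55, chr20:58839498-58839797, plus strand: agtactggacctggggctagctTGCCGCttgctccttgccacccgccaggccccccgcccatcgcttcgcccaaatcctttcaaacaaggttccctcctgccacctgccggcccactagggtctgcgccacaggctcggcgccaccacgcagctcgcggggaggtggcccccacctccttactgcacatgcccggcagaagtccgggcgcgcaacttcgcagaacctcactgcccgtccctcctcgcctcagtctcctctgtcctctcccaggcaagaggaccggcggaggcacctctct
GNAS XLas, chr20:58852466-58852765, plus strand: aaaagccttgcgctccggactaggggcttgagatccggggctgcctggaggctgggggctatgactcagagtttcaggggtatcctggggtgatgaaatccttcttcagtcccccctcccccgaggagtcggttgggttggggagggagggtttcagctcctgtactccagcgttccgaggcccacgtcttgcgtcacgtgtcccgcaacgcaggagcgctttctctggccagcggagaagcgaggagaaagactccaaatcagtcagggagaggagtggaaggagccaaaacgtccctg
GNAS exon A/B, chr20:58888930-58889229, plus strand: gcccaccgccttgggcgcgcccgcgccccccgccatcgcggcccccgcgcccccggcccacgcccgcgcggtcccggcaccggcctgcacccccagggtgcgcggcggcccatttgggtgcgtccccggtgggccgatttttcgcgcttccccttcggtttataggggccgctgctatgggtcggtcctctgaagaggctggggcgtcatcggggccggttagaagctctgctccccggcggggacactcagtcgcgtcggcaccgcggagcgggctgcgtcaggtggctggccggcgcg
PLAGL1 imprinted promoter, chr6:144008210-144008509, minus strand: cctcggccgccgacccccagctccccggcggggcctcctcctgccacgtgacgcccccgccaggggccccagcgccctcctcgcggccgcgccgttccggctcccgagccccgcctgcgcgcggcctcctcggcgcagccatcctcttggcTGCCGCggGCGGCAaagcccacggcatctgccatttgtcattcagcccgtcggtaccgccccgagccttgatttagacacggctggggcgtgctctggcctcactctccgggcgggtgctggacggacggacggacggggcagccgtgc
PLAGL1 upstream promoter, chr6:144064550-144064849, minus strand: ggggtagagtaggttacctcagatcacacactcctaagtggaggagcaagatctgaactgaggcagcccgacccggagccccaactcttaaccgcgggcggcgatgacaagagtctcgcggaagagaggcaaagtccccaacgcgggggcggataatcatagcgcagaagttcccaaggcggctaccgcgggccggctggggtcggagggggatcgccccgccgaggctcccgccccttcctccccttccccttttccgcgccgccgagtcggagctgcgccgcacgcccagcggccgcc
The exon A/B window shown held 43 CpG dinucleotides at 76.3% GC, that of NESP55 21 at 67.3% and that of XLas 16 at 60.7%. Each of these start clusters has a second window in the table, which held 10 CpG at 52.3% GC for exon A/B, 34 at 68.0% for NESP55 and 18 at 64.3% for XLas, so that the clusters had no fixed order in CpG content. The imprinted PLAGL1 window held 39 CpG at 75.7% GC and 2 copies of TGCCGC, and the upstream window 31 CpG at 67.3% GC and 0 copies. TGCCGC occurred in 7 of the 17 windows (41.2%) and in 16.7% of 34943 RefSeq windows of the same length, and CCATNTT, the core bound by YY1, in 6 of 17 (35.3%) and 15.6%, both strands being searched and some MEST windows overlapping one another. The median CpG observed over expected was 0.70 in the 17 windows and 0.58 in all. These matches describe the letters and not binding.

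In untreated cells the GNAS locus on chromosome 20 was split into a repressive and an active block. H3K27me3 lay over the distal promoters in 5 overlapping intervals that together run from 58832694 to 58865300, 32.6 kb, and cover the NESP55 starts (58839718 to 58841654) and the XLas starts (58852714 to 58853266). No H3K4me3 or H3K27ac interval overlapped this domain. The next H3K4me3 interval began 22.02 kb further downstream, at 58887315, and ran to 58893131 over the exon A/B starts (58888413 to 58889881) and the Gs alpha starts (58891302 to 58893100), with an H3K27ac interval at 58887974 to 58893198 over the same starts. Coordinates of intervals are as the files list them, with no statement of whether they count from 0 or 1. H3K4me1 lay in the gene body, 3.29 to 6.91 kb and 14.0 to 19.7 kb from the Gs alpha start of the MANE transcript, together with a weak H3K4me3 interval of 1.75 kb at 0.517 CPM per kb. A further H3K4me1 interval (58846681 to 58849044) lay inside the H3K27me3 domain beside a GNAS-AS1 start, at 1.019 CPM per kb in DMSO.

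**Figure D1:**
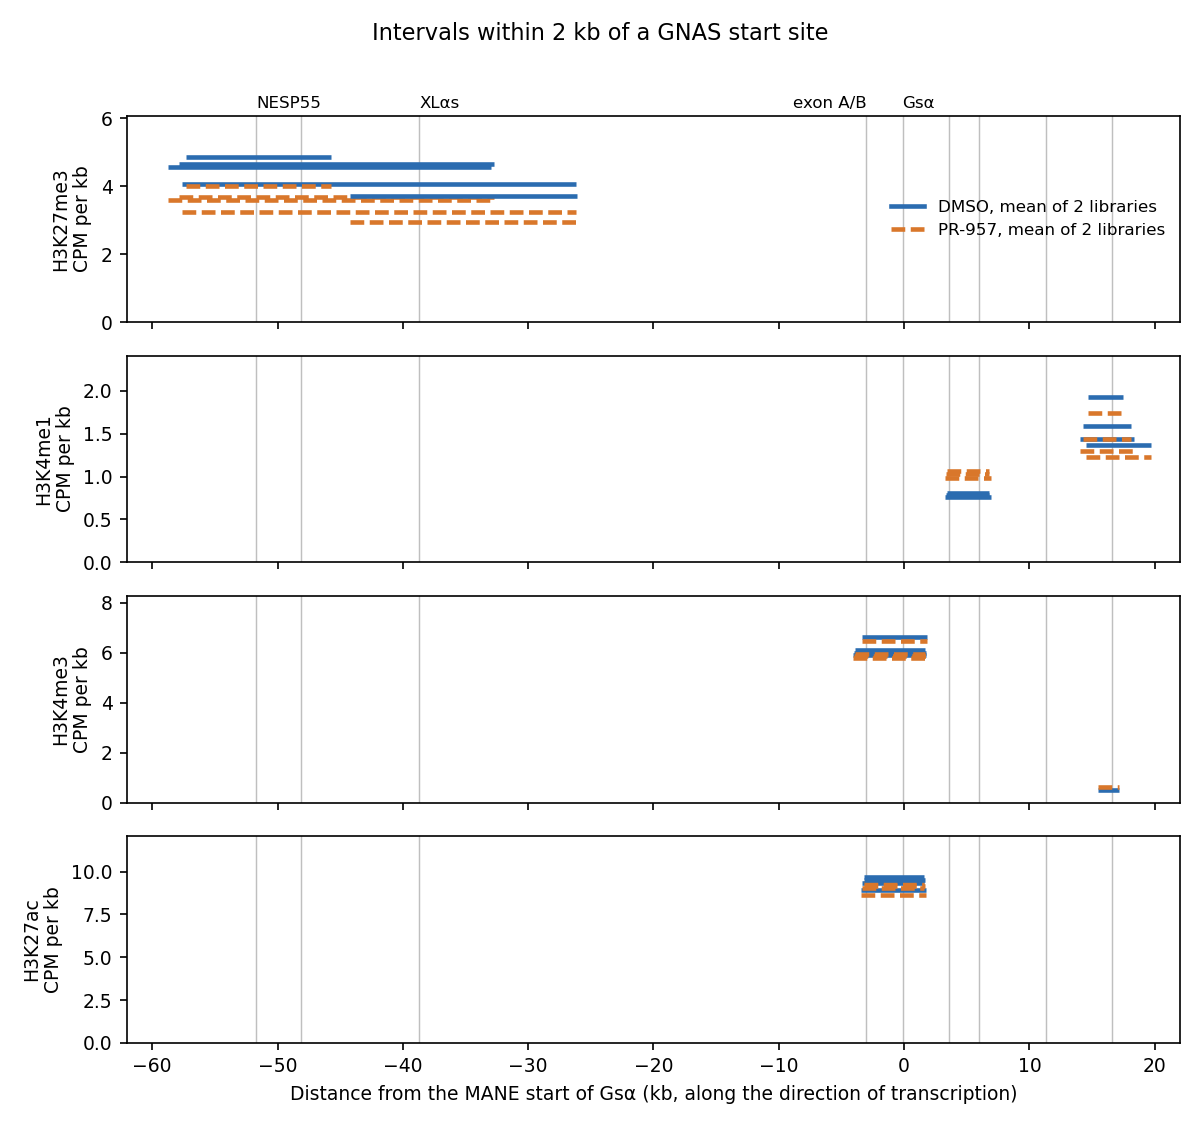
Levels at the 21 GNAS intervals in CPM per kb (y axis, from 0, own scale per modification) against the distance from the Gs alpha start in kb (x axis), as the mean of 2 DMSO libraries (solid) and 2 PR-957 libraries (dashed), with grey lines at the first start site of each cluster. H3K27me3 covered NESP55 and XLas with PR-957 below DMSO in all 5 intervals, whereas H3K4me3 and H3K27ac covered exon A/B and Gs alpha.

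The active block ranked high among genes. Its H3K27ac interval stood at 8.90 CPM per kb in DMSO, the 87.4th percentile of 12091 protein-coding genes with an interval, and its H3K4me3 interval at 5.92 CPM per kb, the 70.4th percentile of 12791. The longest H3K27me3 interval (58833757 to 58865221, 31.5 kb) stood at 4.06 CPM per kb, the 77.6th percentile of 3976 genes. The 3 protein-coding genes closest to GNAS over the 16 library values (Euclidean distance of log2 CPM per kb, 993 genes with intervals in the same 4 modifications) were BAHCC1 at a distance of 1.11, MORF4L1 at 1.28 and FADS2 at 1.31, against a median of 5.86.

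Upon PR-957 treatment H3K27me3 fell over the NESP55 and XLas promoters. In the 31.5 kb interval the DMSO libraries had 131 and 125 CPM and the PR-957 libraries 107 and 96.9 CPM. Both PR-957 values lay below both DMSO values. The means were 128 ± 4.15 and 102 ± 7.06 CPM (SD, n = 2 each), and the log2 fold change was -0.33 with a standard error of 0.07 (edgeR quasi-likelihood test, adjusted p = 9.52e-05 over 31806 intervals). GNAS-AS1, the antisense transcript that starts at XLas, shares this interval.

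Measured apart, both promoters were called lower by edgeR with TMM, the NESP55 side less firmly. The 11.6 kb interval on the NESP55 side (58834140 to 58845717) had 55.2 and 57.5 CPM in DMSO against 50.3 and 42.5 CPM with PR-957, and its log2 fold change was -0.28 (SE 0.09, edgeR adjusted p = 0.0384). The 18.1 kb interval on the XLas side (58847188 to 58865300) had 71.2 and 63.6 CPM against 54.2 and 52.8 CPM, with a log2 fold change of -0.33 (SE 0.08, edgeR adjusted p = 0.00350). In both the groups did not overlap, and these 2 intervals share no bases. With library size only neither side passed (edgeR adjusted p = 0.484 for NESP55 and 0.249 for XLas). The NESP55 side also missed the threshold with cyclic loess offsets, with a mean count of at least 50 and with the replicate block (edgeR adjusted p = 0.186, 0.0703 and 0.133). The NESP55 side did not pass with DESeq2 (adjusted p = 0.129) or in edgeR without DMSO replicate 1, DMSO replicate 2 or PR-957 replicate 2 (adjusted p = 0.108, 0.289 and 0.484), nor the XLas side in edgeR without DMSO replicate 1 or PR-957 replicate 2 (adjusted p = 0.231 and 0.0550), all with a log2 fold change below 0. The other 2 GNAS intervals, which span both promoters, had log2 fold changes of -0.35 and -0.34 (adjusted p = 3.93e-05 and 7.84e-05 in edgeR), so that 5 of 5 GNAS intervals were called lower. Since they overlap, they are not 5 independent observations.

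Lower H3K27me3 was common among wide intervals. In all, 5.92% of tested H3K27me3 intervals were called, 5.09% lower, but of 3788 intervals of at least 10 kb 29.0% were called lower, and both PR-957 libraries lay below both DMSO libraries in 22.5% of all tested intervals. The median log2 fold change was -0.08 for the intervals of at least 10 kb and 0.02 for all. GNAS thus belonged to a class in which such calls were frequent. Of all H3K27me3 calls 86.1% were lower with TMM, against 54.8% with cyclic loess offsets and 31.5% when scaled by library size alone. With DESeq2, which gave 17.8% of the intervals with an adjusted p as lower, the 31.5 kb interval kept a log2 fold change of -0.32 (adjusted p = 0.00310). With library size in place of TMM its log2 fold change was -0.17 (edgeR adjusted p = 0.0950), while the median of all intervals rose by 0.16, since this scaling shifts all intervals together. With cyclic loess offsets, which do not, its log2 fold change was -0.21 (edgeR adjusted p = 0.0154). The TMM factors of H3K27me3 differed by treatment, at 0.943 and 0.948 in DMSO and 1.04 and 1.075 with PR-957. Which scaling is right was not tested.

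Past the end of the domain the values ran the other way without passing the test. Between the domain and exon A/B lay 5 small H3K27me3 intervals, of which 4 were tested, with log2 fold changes of 0.49 to 0.73 (lowest edgeR adjusted p = 0.604). The tested ones overlap in pairs and share most of their counts, so they are not 4 independent values. The first of them (58865387 to 58866597) had 0.846 and 1.41 CPM in DMSO and 2.04 and 1.78 CPM with PR-957, from 8 to 23 counts per library. A further 2 small intervals inside the domain had log2 fold changes of -0.23 and -0.19, neither called.

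At the active GNAS promoters no change was detected. H3K27ac over exon A/B and Gs alpha stood at 46.6 and 46.4 CPM in DMSO and 46.3 and 43.8 CPM with PR-957, a log2 fold change of -0.05 (SE 0.09, edgeR adjusted p = 0.953), with PR-957 replicate 1 barely below DMSO. H3K4me3 there stood at 35.4 and 33.5 CPM in DMSO and 32.1 and 35.0 CPM with PR-957, a log2 fold change of -0.04 (SE 0.08, edgeR adjusted p = 0.957). The H3K4me3 values overlapped between the groups. Of the GNAS intervals, 0 of 4 in H3K27ac, 0 of 5 in H3K4me3 and 0 of 7 in H3K4me1 were called by edgeR, with 0 at an unadjusted p under 0.05 and 0 called by DESeq2 in each. Calls were rare at large: edgeR called 0.238% of all tested intervals in H3K27ac, 0.226% in H3K4me3 and 1.94% in H3K4me1. In H3K4me1 the 3 intervals nearer to Gs alpha had log2 fold changes of 0.39 to 0.42 (lowest edgeR adjusted p = 0.414). The 4 farther ones, with values that overlapped between the groups, had -0.14 to -0.12. The 3 nearer intervals overlap one another and share most of their counts, as do the 4 farther ones, so each set is a single place.

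IGF2, the paternally expressed insulin-like growth factor II, carried the highest H3K27me3 of the 6 members with such an interval, 13.0 CPM per kb in DMSO over 24.8 kb (chromosome 11, 2130898 to 2155736), the 94.0th percentile. The interval covers 8 of its start sites including that of the MANE transcript, and also IGF2-AS and MIR483. It had 320 and 327 CPM in DMSO and 303 and 274 CPM with PR-957, with PR-957 below DMSO throughout. Of 8 IGF2 intervals edgeR called 4 lower, this interval and those that overlap it over most of its length. Among all tested H3K27me3 intervals 5.09% were called lower, and among those of at least 10 kb 29.0%. The representing interval of IGF2 had a log2 fold change of -0.16 (SE 0.05, edgeR adjusted p = 0.0358). This call was close to the threshold: DESeq2 gave an adjusted p of 0.0766, median-of-ratios factors 0.0569 in edgeR, and without DMSO replicate 1, DMSO replicate 2 or PR-957 replicate 2 the edgeR adjusted p was 0.230, 0.396 and 0.288. With cyclic loess offsets the log2 fold change was 0.001705, and with library size only -0.003601. Toward INS, where the other 4 intervals lie, log2 fold changes were -0.05 to 0.07, and H3K27ac near the distal IGF2 starts was low, at 0.961 CPM per kb in DMSO.

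**Figure D2:**
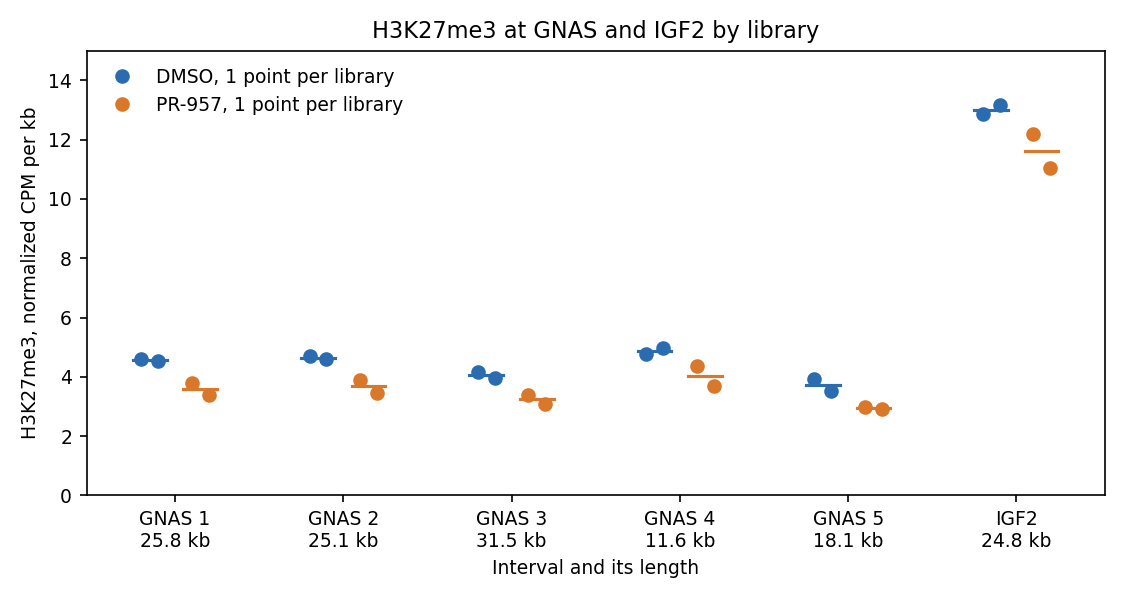
H3K27me3 in CPM per kb (y axis, from 0) in each library (points, with bars at the mean of 2) for the 5 GNAS intervals, numbered by start coordinate, and the representing interval of IGF2, with the interval length below each name. In all 6 intervals both PR-957 libraries lay below both DMSO libraries, as in 22.5% of all tested H3K27me3 intervals. The 5 GNAS intervals overlap and are not independent. IGF2 stood at 13.0 CPM per kb in DMSO against 4.06 for GNAS interval 3.

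**Figure D3:**
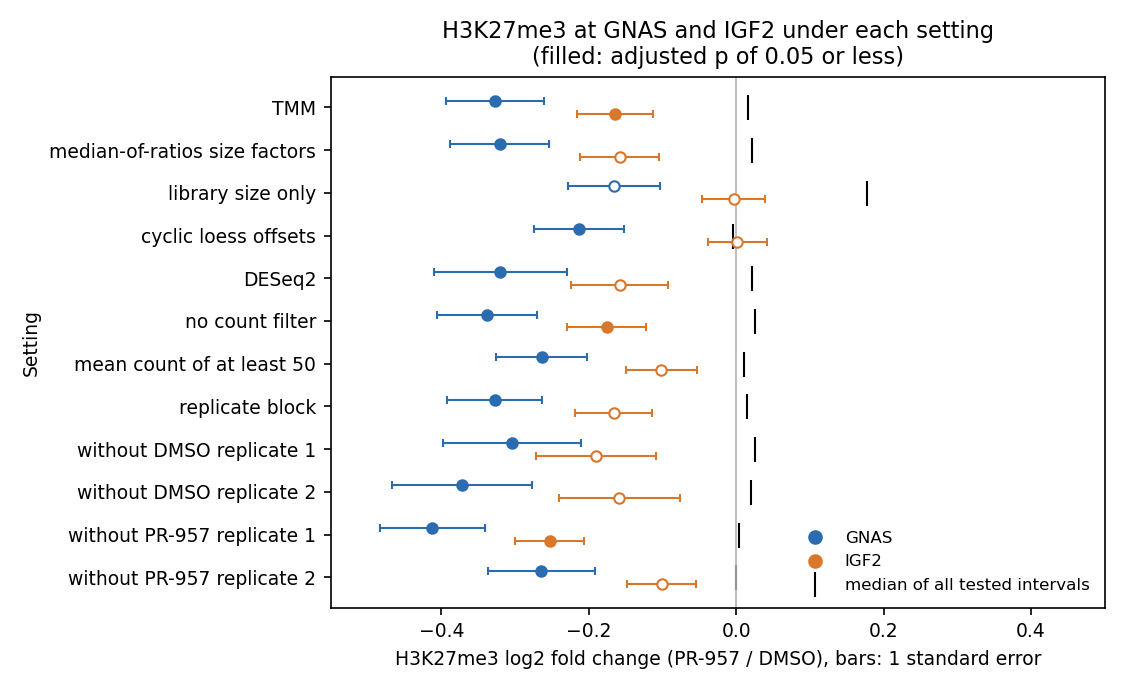
Log2 fold change of H3K27me3 (x axis, PR-957 over DMSO, bars of 1 standard error) at the representing intervals of GNAS and IGF2 under each setting (y axis), filled where the adjusted p was 0.05 or less, with the median of all tested intervals as a black tick. GNAS stayed below 0 throughout and missed the threshold with library size only, whereas IGF2 passed with TMM, without a count filter and without PR-957 replicate 1.

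The rest of the chromosome 11 cluster showed other states. CDKN1C, a maternally expressed inhibitor of cyclin-dependent kinases, had short H3K27me3 intervals and a weak H3K4me3 interval (0.511 CPM per kb, percentile 1.298), with 33 and 16 H3K4me3 counts in DMSO and 34 and 8 with PR-957. Its H3K27me3 interval (2886601 to 2887896, 1.295 kb) had 1.90 and 2.64 CPM in DMSO and 2.41 and 2.17 CPM with PR-957, overlapping values. KCNQ1, a maternally expressed potassium channel subunit, had all 4 modifications. Its H3K4me3 interval (2443404 to 2448813) covered the MANE start at 18.0 and 15.9 CPM in DMSO and 19.5 and 17.9 CPM with PR-957, a log2 fold change of 0.14 (edgeR adjusted p = 0.788). The representing H3K27ac interval of KCNQ1 (2462527 to 2468956) held none of its start sites and lay 17.5 kb from the MANE start. Over the MANE start, H3K27ac at 2444808 to 2448842 had 6.81 and 6.45 CPM in DMSO and 4.03 and 4.93 CPM with PR-957. Its log2 fold change was -0.56 (edgeR unadjusted p = 0.0289, adjusted p = 0.538). The overlapping interval 2443961 to 2446244 had -0.49 (edgeR adjusted p = 0.822).

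KCNQ1 had the lowest p of the 4 members tested in H3K4me1 and missed the threshold. The H3K4me1 interval over its start (2444863 to 2449348) had 11.7 and 12.6 CPM in DMSO and 8.22 and 9.92 CPM with PR-957 (log2 fold change -0.41, SE 0.14, edgeR adjusted p = 0.0953). Its H3K27me3 interval (2443158 to 2444592), which begins beside the promoter toward TRPM5, had 1.48 and 1.67 CPM in DMSO and 2.41 and 3.87 CPM with PR-957, from 14, 19, 26 and 50 counts. The log2 fold change was 0.99 (SE 0.43, edgeR adjusted p = 0.199), so this interval did not pass either. KCNQ1OT1, the paternally expressed antisense RNA that starts inside KCNQ1 and was singled out after its values were seen, had H3K27ac of 18.8 and 16.9 CPM in DMSO and 14.4 and 12.7 CPM with PR-957 (log2 fold change -0.41, edgeR adjusted p = 0.406) and H3K4me3 of 20.2 and 19.2 CPM against 19.04 and 18.85 CPM.

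PLAGL1, a paternally expressed zinc finger gene that restrains cell proliferation, carried active marks mainly at its upstream promoter, which is not the imprinted one. The upstream H3K4me3 interval (chromosome 6, 144062014 to 144065792) stood at 6.55 CPM per kb in DMSO, the highest H3K4me3 of the 6 members measured, and at 23.2 and 26.3 CPM in DMSO against 25.6 and 23.3 CPM with PR-957. H3K27ac there had 16.8 and 16.9 CPM in DMSO and 14.2 and 15.9 CPM with PR-957 (log2 fold change -0.16, edgeR adjusted p = 0.881). At the imprinted promoter, whose sequence with 2 copies of TGCCGC is given above, H3K4me3 (144006254 to 144009080) was 1.49 CPM per kb in DMSO and lay together with H3K27me3 (144007707 to 144009353, 0.814 CPM per kb). The H3K27me3 counts there were 12 and 16 in DMSO and 19 and 28 with PR-957 (log2 fold change 0.55, SE 0.53, edgeR adjusted p = 0.705). H3K4me1 at a downstream start (143964990 to 143969969) had 9.35 and 8.28 CPM in DMSO and 10.8 and 11.1 CPM with PR-957, without passing (edgeR adjusted p = 0.248).

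MEST, a paternally expressed gene of the alpha/beta hydrolase fold family, also had its active marks at an upstream start, but no interval at the imprinted start is analysed here. Its H3K4me3 interval (chromosome 7, 130484777 to 130488361), H3K27ac interval (130485707 to 130487805) and H3K4me1 interval (130484727 to 130489355) surrounded the upstream start and ended 3.72, 4.28 and 2.73 kb short of the MANE start, which belongs to the imprinted promoter. H3K4me3 had 10.1 and 9.61 CPM in DMSO and 10.8 and 9.74 CPM with PR-957, and H3K27ac 9.54 and 11.2 CPM against 10.8 and 11.1 CPM, overlapping in both cases. H3K4me1 had 3.93 and 5.27 CPM in DMSO and 3.08 and 3.65 CPM with PR-957 (log2 fold change -0.43, SE 0.22, edgeR adjusted p = 0.325).

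PEG10, a paternally expressed gene derived from a retrotransposon, had an interval in H3K4me3 alone (94655678 to 94659125), which its neighbour SGCE shares. It was weak, at 0.846 CPM per kb and the 4.78th percentile, with 2.69 and 3.15 CPM in DMSO and 3.87 and 3.34 CPM with PR-957 (log2 fold change 0.31, SE 0.24, edgeR adjusted p = 0.846). DLK1, a paternally expressed membrane ligand related to those of Notch, had a 10.9 kb H3K27me3 interval over its start (chromosome 14, 100719714 to 100730575) with 23.9 and 20.2 CPM in DMSO and 21.9 and 17.6 CPM with PR-957. These values overlapped (log2 fold change -0.16, SE 0.14, edgeR adjusted p = 0.662). A narrower interval over the same starts (100724848 to 100728387) had 11.95 and 11.1 CPM in DMSO and 10.1 and 7.425 CPM with PR-957. Its log2 fold change was -0.40 (SE 0.20, edgeR unadjusted p = 0.042, adjusted p = 0.293), so it did not pass either. The intervals of 8.63 and 8.38 kb had -0.24 and -0.22, with overlapping values. H3K27ac of DLK1 stood at the 1.84th percentile, at 0.816 CPM per kb.

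**Figure D4:**
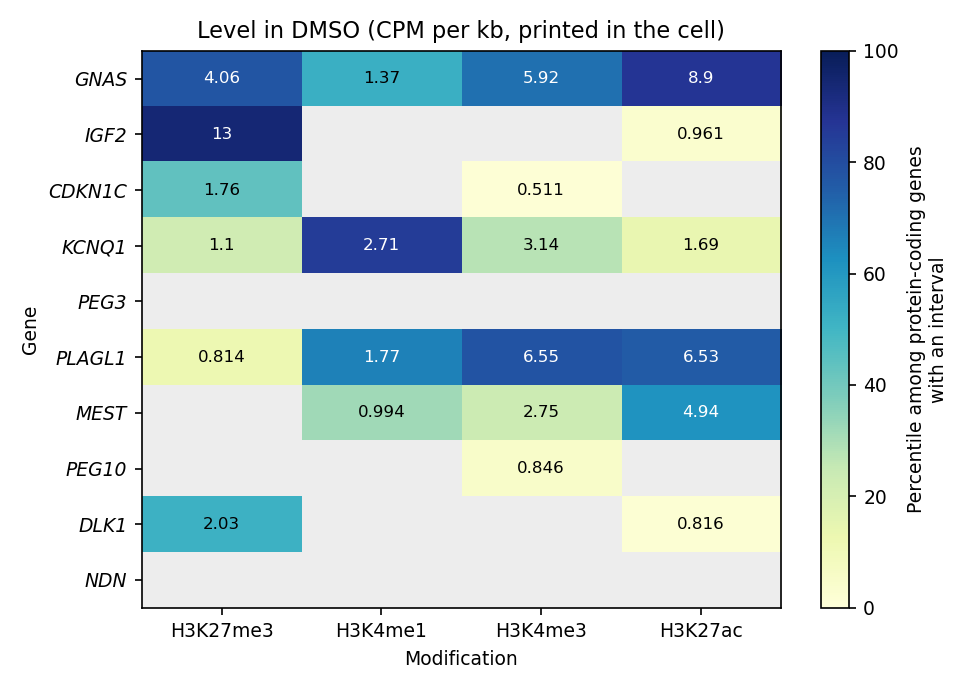
Level in DMSO of the representing interval of each gene (rows) in each modification (columns), printed as CPM per kb and coloured by its percentile among protein-coding genes with an interval in that modification, grey where no interval is analysed here. IGF2 led in H3K27me3 at 13.0 CPM per kb, GNAS in H3K27ac at 8.90, PLAGL1 in H3K4me3 at 6.55 and KCNQ1 in H3K4me1 at 2.71.

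Set side by side in DMSO, H3K27me3 per kb fell in the order IGF2, GNAS, DLK1, CDKN1C, KCNQ1 and PLAGL1, and H3K27ac per kb in the order GNAS, PLAGL1, MEST, KCNQ1, IGF2 and DLK1. The libraries of DLK1 and CDKN1C overlapped in H3K27me3, as did those of IGF2 and DLK1 in H3K27ac, and no other neighbours in these orders overlapped. For H3K4me3 the order was PLAGL1, GNAS, KCNQ1, MEST, PEG10 and CDKN1C, the lower library of PLAGL1 (6.14 CPM per kb) lying just above the higher one of GNAS (6.09 CPM per kb). These orders hold for the representing intervals and depend on the interval taken. Narrower H3K4me3 intervals at the same promoters reached 5.035 CPM per kb in DMSO for MEST and 4.25 for KCNQ1, the reverse order. Of the 10 genes, 4 had both H3K4me3 and H3K27me3 intervals, beside 11.6% of 20002 protein-coding genes, and in 2, KCNQ1 and PLAGL1, an interval of one overlapped an interval of the other, beside 10.4%. In a wider list of 56 imprinted genes such an overlap was found in 6 (10.7%), close to the share of all genes. At GNAS the 2 modifications were on different promoters.

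Across the representing intervals H3K27me3 at GNAS and IGF2 was lower upon PR-957 treatment, and no other member or modification passed. In H3K27me3 edgeR called 2 of 6 members tested and DESeq2 called 1, GNAS. DESeq2 gave no adjusted p to CDKN1C, KCNQ1 and PLAGL1 there, so it could not call them. Of the 3 members whose interval spans at least 10 kb, GNAS, IGF2 and DLK1, 2 were called, beside 29.0% of all such intervals. In H3K27ac 0 of 6 members were called by edgeR (0 at an unadjusted p under 0.05, and 0 by DESeq2, which gave an adjusted p to GNAS alone), where 0.238% of all tested intervals were. In H3K4me3 it was 0 of 6 (0 and 0, 0.226% of all) and in H3K4me1 0 of 4 (2 at an unadjusted p under 0.05, KCNQ1 and PLAGL1, 0 by DESeq2, 1.94% of all). The edgeR test was tried on simulated counts, with the changed intervals drawn at random from all tested ones. It recovered 26% of H3K27me3 intervals changed 1.5-fold, 22% for H3K27ac, 19.5% for H3K4me1 and 69.5% for H3K4me3. Changes of this size at such intervals were missed in most cases in the first 3 modifications and recovered in most cases in H3K4me3. Recovery was not measured apart for intervals with many counts, such as those of GNAS in H3K27me3 and H3K27ac (SE 0.07 and 0.09).

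**Figure D5:**
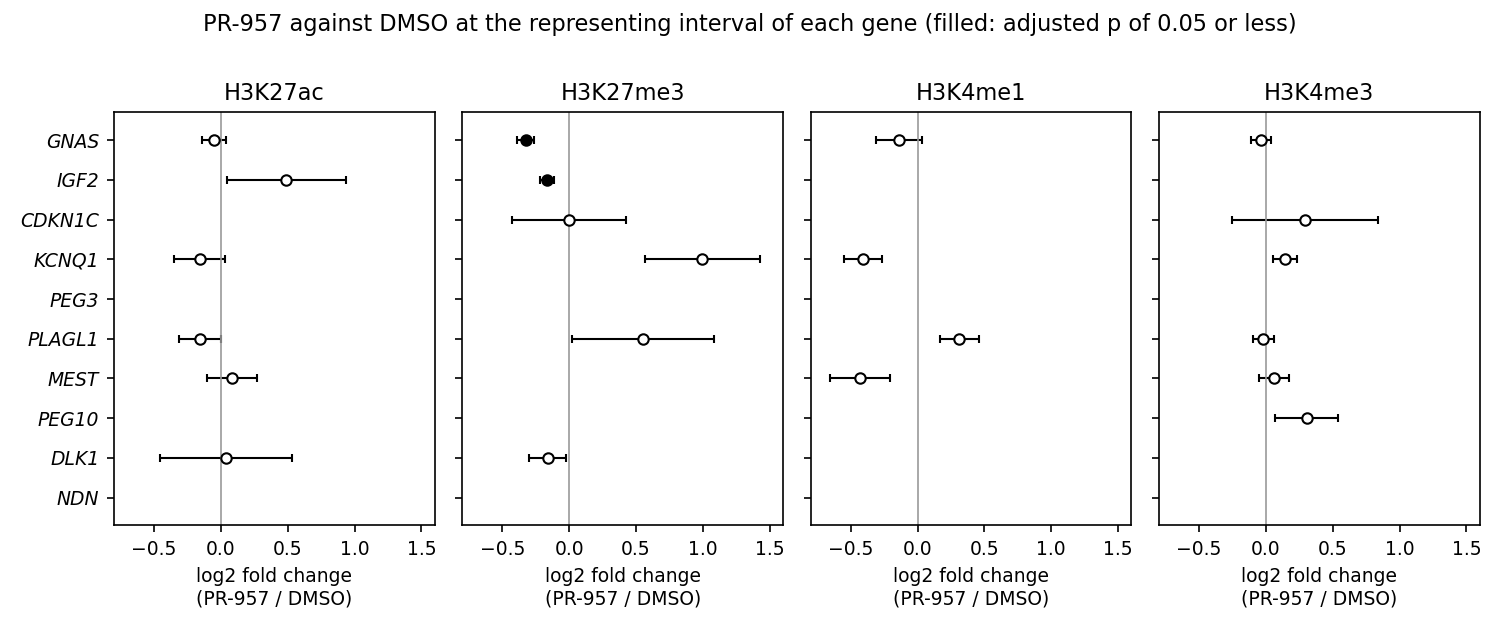
Log2 fold change of PR-957 over DMSO (x axis, bars of 1 standard error from edgeR) at the representing interval of each gene (y axis) in each modification, filled where the adjusted p was 0.05 or less. The filled points are H3K27me3 at GNAS (-0.33) and IGF2 (-0.16), and a gene without a point has no interval analysed here.

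A wider list of imprinted genes, 57 written from general knowledge of which 56 were in the annotation, gave 1 call over the 4 modifications. Intervals were found for 28 of them in H3K27ac, 17 in H3K27me3, 20 in H3K4me1 and 29 in H3K4me3. Since some genes share an interval, these are 26, 16, 20 and 28 distinct intervals. Some also represent a member: INS shares the H3K27ac interval of IGF2, HYMAI the H3K27me3 interval of PLAGL1 and SGCE the H3K4me3 interval of PEG10. By edgeR 1 passed, GNAS-AS1 in H3K27me3, through the interval it shares with GNAS, 1 of 17 beside 5.92% of all tested intervals. Calls in H3K27ac, H3K4me1 and H3K4me3 numbered 0, with 6, 1 and 2 at an unadjusted p under 0.05 and 0 each by DESeq2, beside 0.238%, 1.94% and 0.226% of all tested intervals. The 6 in H3K27ac include an interval counted for both of the genes that share it. A 0 by DESeq2 may include intervals to which it gave no adjusted p. The median log2 fold change of the list was 0.05 in H3K27ac, 0.16 in H3K27me3, 0.00 in H3K4me1 (-0.003519) and 0.03 in H3K4me3, beside 0.02 over all intervals in H3K27me3. The lowest unadjusted p outside GNAS-AS1 belonged to ASCL2, a transcription factor gene next to the IGF2 cluster that was named after its values were seen. Its H3K27ac was 3.25 and 4.13 CPM in DMSO and 6.44 and 7.04 CPM with PR-957 (log2 fold change 0.88, SE 0.27, edgeR adjusted p = 0.157).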

How the data were processed

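Cut&Tag libraries of 4 histone modifications from MOLM-13 cells treated with DMSO or PR-957 were used, 2 per treatment and modification. Per the study's methods, reads were aligned to hg38 with Bowtie2 and peaks were called with MACS2 or SEACR. The submitters' processing notes list Trimmomatic 0.39, Bowtie2 2.2.5, Picard 2.27.1, SAMtools 1.7, SEACR 1.3 and deepTools 3.5.1. The deposited values are raw counts of reads or fragments that the authors made over intervals listed for each modification, and they are not normalized. The counter and the handling of duplicates are not given in the sources used here. Intervals of a list overlap one another, so tests on them are not independent.

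Each modification was fitted apart. Intervals kept by filterByExpr (minimum count 10) were TMM-scaled, and treatments were compared with edgeR 4.0.16, quasi-likelihood test (limma 3.58.1, R 4.3.3), with Benjamini-Hochberg adjustment over all tested intervals, and called at an adjusted p of 0.05 or less. The standard error is the log2 fold change over the root of F. Intervals were matched to GENCODE release 44 in Python 3.11.15. GNAS start sites less than 1 kb apart were taken as a cluster. The genes named were the 10 members, those of the wider list past the threshold with non-overlapping groups, and the 3 genes nearest to GNAS, in which 0.05 CPM was added before log2. KCNQ1OT1 and ASCL2 were named outside this rule, after their values were seen. Of the wider list, GPR1 was matched as CMKLR2 and PEG3-AS1 was not matched.

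The members, lists and tests were chosen with earlier results of these data known. With 2 libraries against 2, an exact permutation test cannot give a p below 0.333, and no such test was used. The fit was tested on simulated data with 200 changed intervals. Alternatives were scaling by library size only, by median-of-ratios factors or by cyclic loess, the test of DESeq2 1.42.0, leaving the count filter out or raising it to a mean of 50, a replicate block, 1 and 5 kb windows, and leaving out each library. The 2 IgG samples are not analysed here, and 1 cell type marker is not reported here.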

Additional observations from a re-analysis of the deposited data

How the results depend on the processing

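Of the member intervals and GNAS intervals named above, 96 of 97 values under the alternatives kept their direction and side of the threshold in H3K27ac, 83 of 107 in H3K27me3, 108 of 110 in H3K4me1 and 106 of 108 in H3K4me3, counting as kept a change of sign within 1 standard error of an uncalled value (3, 6, 1 and 11 values). A value without an adjusted p in DESeq2 counted as uncalled. In H3K27me3, 22 values no longer passed with their direction kept, and 1 more, IGF2 with loess, lost its call and turned. The count of members past the threshold in H3K27me3, 2 with TMM, was 1 with median-of-ratios factors, with cyclic loess offsets, with DESeq2 and with a mean count of at least 50, and 0 with library size only. GNAS was the 1 that remained in each of these. With library size only, GNAS intervals past the threshold numbered 0 and those of the wider list 0. Leaving out each library gave 1 to 2 members and 3 to 5 GNAS intervals. The 3 were found when either DMSO replicate 1 or PR-957 replicate 2 was left out, where the NESP55 side (log2 fold change -0.32 and -0.17) and the XLas side (-0.26 and -0.32) missed the threshold, and the NESP55 side also missed it without DMSO replicate 2, with DESeq2, loess, the stricter count filter and the replicate block. The representing GNAS interval had edgeR adjusted p of 5.59e-05 to 0.0346 without each library.

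Whether the replicate numbers pair the samples cannot be told from 2 libraries per group. Deviations of same-numbered libraries from their group means correlated at -0.01 in H3K27ac, -0.01 in H3K27me3, 0.01 in H3K4me1 and 0.17 in H3K4me3. Since the deviations of 2 libraries mirror each other, both pairs of a modification give the same value. With the replicate block the members past the threshold in H3K27me3 numbered 1, GNAS (log2 fold change -0.33, edgeR adjusted p = 0.00408), and IGF2 had an adjusted p of 0.103.

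Signs turned in 7 uncalled or lost values. With cyclic loess offsets IGF2 in H3K27me3 was 0.001705, and with library size only DLK1 in H3K27me3 was 0.001878. The other 5 turned when a library was left out. Over the libraries left out, IGF2 in H3K27ac ran from -0.11 (without PR-957 replicate 1) to 0.97, CDKN1C in H3K4me3 from -1.09 (without PR-957 replicate 1) to 0.98, and 2 of the farther GNAS intervals in H3K4me1 from -0.40 and -0.39 to 0.059 and 0.038 (without PR-957 replicate 1). PLAGL1 in H3K4me3 reached 0.075 without DMSO replicate 2. The cause was not tested. Calls over all intervals depended on the tool and the libraries: 177 in H3K27ac became 85 with DESeq2 and 20 to 89 without a library, 2099 in H3K4me1 became 26 with DESeq2 and 322, 690 and 362 when DMSO replicate 1, DMSO replicate 2 or PR-957 replicate 1 was left out, and 134 in H3K4me3 became 34 with DESeq2 and 83, 28 and 54 when the same libraries were left out. In H3K27me3, 1882 calls became 1168 to 1210 without a DMSO library, and the share of calls that were lower was 86.1% with TMM, 31.5% with library size only and 54.8% with loess. In H3K4me1 it was 36.1% with TMM and 19.7% with library size only. Depth limits CDKN1C, DLK1 in H3K27ac and PLAGL1 and KCNQ1 in H3K27me3, which rest on 8 to 50 counts per library.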
